A study of Camelus bactrianus with 10 samples.

Results

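The small RNAs described here are miR-221 and miR-222, taken as every entry of the deposited table that carries either name, on either arm of the hairpin and with any change at its ends. There were 4 such entries among 2581 small RNAs, namely miR-221-3p, miR-221-5p, miR-222-3p and miR-222-5p, so each arm was represented by a single entry. Of the 726 mature names in the table, 83.5% likewise had 1 entry. The table came from small RNA sequencing of exosomes, the small vesicles that cells release, which had been pelleted from the blood plasma of 10 Bactrian camels (Camelus bactrianus). The 5 camels of the normal group weighed between 452.3 and 492.8 kg and the 5 of the thin group between 402.6 and 421.2 kg. No treatment, breed, age or sex was given in the sources used here, and each library came from a different animal.

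MiR-221 and miR-222 are encoded next to each other on the X chromosome of mammals and are made from a shared primary transcript. A miRNA guides the Argonaute protein to messenger RNAs that pair with its seed, and because the 3p arms of miR-221 and miR-222 have the same seed, they are known in human and mouse cells to repress largely the same targets. Among these are CDKN1B and CDKN1C, inhibitors of the cell cycle, and KIT, the receptor of stem cell factor. Both miRNAs are known from vascular endothelium and smooth muscle and are often raised in human hepatocellular carcinoma, the tumour that the series' title connects with these exosomes.

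The sequences of the 4 entries, as deposited in DNA letters from 5′ to 3′, are shown because the shared seed is what defines the pair. Capitals mark the seed, bases 2 to 8.
miR-221-3p: aGCTACATtgtctgctgggtttc
miR-222-3p: aGCTACATctggctactgggtctct
miR-221-5p: aCCTGGCAtacaatgtagattt
miR-222-5p: cTCAGTAGccagtgtagatcc
The 3p arms were identical over their first 8 bases and at 11 of the 23 positions that could be compared without gaps. No other entry of the table had the seed GCTACAT, and no other entry had the sequence of any of the 4. The 5p arms, by contrast, had different seeds, each found in 1 entry only. They shared a run of 7 bases, TGTAGAT, nearer the 3′ end.

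The arms of each hairpin also matched each other as the strands of a stem would. A run of 9 bases of miR-221-5p was the reverse complement of a run of miR-221-3p that started at its base 3, and the longest such run in miR-222 had 10 bases. The entry of miR-222-3p had 25 bases, since its name recorded 4 bases gained at the right end. Among 366 tested entries with a miRNA name the median length was 22 bases, and 3 had gained 4 or more bases there. The miR-222-5p entry had lost 1 base at the right end, while both miR-221 entries carried no change.

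Depth differed between libraries. The value of every library moved in steps, of 0.165 to 1.05 normalized counts, and the positive values of the 4 entries were all even numbers of steps (32 of 32). Reads are therefore given at 2 steps each, the lower of the possible counts, which puts the libraries between 252632 and 2237451 reads. Normal 4, normal 5 and thin 4 were the 3 deepest. Normal 4 and normal 5 stood apart, because 0.487% and 0.445% of their totals carried names from a miRNA cluster that is found in primates, against at most 0.0103% in any other library. Results are therefore also given without them. The share of red blood cell miRNAs ran from 14.7% to 28.5% in normal libraries and from 7.73% to 14.9% in thin ones.

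The main comparison asked whether the level of the pair was tied to body condition. MiR-221-3p had the higher mean in thin camels, at 1.73-fold, miR-222-3p differed by less, and the passenger arm miR-221-5p varied widely. After adjustment over all small RNAs none of these differences passed the test. Of the 3 entries tested, limma called 0 at an adjusted p of 0.05, where 9 of 468 small RNAs or 1.92% were called, 1.28% as higher in thin camels. At an unadjusted p under 0.05 it called 1, miR-221-3p, against 11.8% of all tested and 5.77% higher in thin camels. All 3 had a higher mean log2 value in thin camels, as did 49.4% of all tested.

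MiR-221-3p, the main product of its hairpin, was the most abundant of the 4. Its values in normal 1 to 5 were 3521, 1863, 2758, 2992 and 2559.5 normalized counts, and in thin 1 to 5 they were 5173, 4627, 3796, 6807 and 3429. Thin 4 was the highest and normal 2 the lowest, and the groups overlapped only in that normal 1 lay above thin 5. The normal mean was 2739 ± 607 and the thin mean 4766 ± 1330.4 (SD, n = 5 per group). The log2 fold change was 0.79 ± 0.24 (SE, 95% interval 0.27 to 1.31), with a limma p of 0.00628 and an adjusted p of 0.157. Without normal 4 and normal 5 it was 0.82 ± 0.31 (adjusted p = 0.353).

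As a share of the library, miR-221-3p averaged 0.388 ± 0.0985% in the normal group and 0.760 ± 0.182% in the thin group. The highest normal share was 0.537% and the lowest thin share 0.555%, so that on this scale the groups did not overlap, as in 19 of the 468 tested small RNAs (4.06%). In the deposited values the groups were apart for 3.63% of all tested and for none of the 3 entries. With all libraries set to equal totals the log2 fold change was 0.97 (limma adjusted p = 0.0546), while the median of all tested moved from -0.01 to 0.17. The red blood cell share was lower in thin camels. With the totals taken without the red blood cell miRNAs, the log2 fold change of miR-221-3p was 0.80 ± 0.21 (limma adjusted p = 0.0994). This stood against 0.97 with equal totals of all small RNAs and 0.79 in the deposited values. The part of the red blood cell miRNAs in the difference was not tested. In these bulk samples, fewer vesicles that carry a miRNA and less of it per vesicle cannot be told apart.

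**Figure D1:**
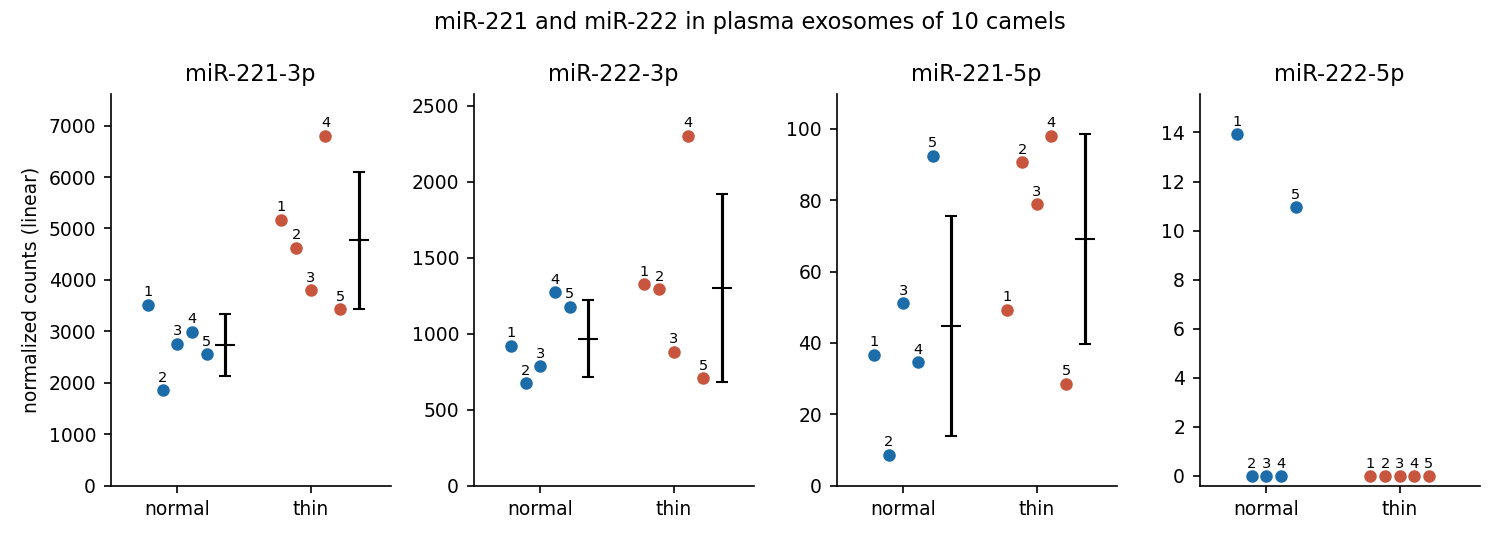
Normalized counts (linear axes, 1 scale per panel) of the 4 entries in each library, labelled by replicate number, with normal camels in blue and thin camels in red; black bars are mean ± SD (n = 5) and are left out for miR-222-5p. For miR-221-3p all thin libraries but thin 5 lie above all normal ones, the groups overlap widely for miR-222-3p and miR-221-5p, and miR-222-5p was listed above 0 in normal 1 and normal 5 only.

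MiR-222-3p has the same seed and was the second most abundant. It held 922, 676, 786, 1273 and 1177 normalized counts in normal 1 to 5, and 1324, 1291, 881, 2304 and 706 in thin 1 to 5. Thin 4 was again the highest library, and the groups overlapped, since thin 3 and thin 5 lay among the normal camels. The means were 967 ± 253 and 1301 ± 620.0. The log2 fold change was 0.35 ± 0.32 (95% interval -0.35 to 1.05, limma adjusted p = 0.731), an interval that holds no change as well as a 2.07-fold increase. It was 0.60 ± 0.38 without normal 4 and normal 5 (adjusted p = 0.646) and 0.11 without thin 4 (adjusted p = 0.882).

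MiR-221-5p, the passenger arm of miR-221, was far less abundant. Its values were 36.7, 8.65, 51.1, 34.7 and 92.5 normalized counts in normal 1 to 5 and 49.3, 90.7, 78.9, 98.2 and 28.6 in thin 1 to 5. The groups overlapped: normal 5 lay above 4 of the 5 thin camels, and thin 5 lay below 4 of the 5 normal camels. The lowest value, that of normal 2, rested on 5 reads (95% exact Poisson interval 1.62 to 11.7), and the highest number of reads was 279. The log2 fold change was 0.82 ± 0.62 (95% interval -0.53 to 2.17, limma adjusted p = 0.681). It was 0.34 without normal 2, 1.16 without normal 5 and 1.27 without normal 4 and normal 5 (adjusted p = 0.776, 0.608 and 0.646).

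MiR-222-5p, the passenger arm of miR-222, was listed in 2 libraries only and was not tested. It held 13.9 normalized counts in normal 1, from 11 reads (95% exact Poisson interval 5.49 to 19.7), and 10.9 in normal 5, from 33 reads (22.7 to 46.3). It was listed at 0 in the other 3 normal and all 5 thin camels. Because nearly all positive values were at least 5 steps, a 0 stands for a value below a minimum. At 5 steps it ran from 0.825 normalized counts in normal 4 to 5.27 in thin 2. Small RNAs with even steps throughout had at least 6, so the minimum of this arm can lie somewhat higher. The value of normal 5 lay above 5 steps in every library, normal 4 included. Counting error could still put such a level below the minimum in a shallow library. A 0 there does not show that the arm was absent. The Poisson intervals cover counting error only, since reads without molecular identifiers are not independent molecules.

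The levels of the 4 arms fell in the same order in every library that listed them. Across libraries the 3p arms were not apart, since thin 4 held more miR-222-3p than normal 2 held miR-221-3p, while both lay above every value of miR-221-5p. Averaged over all 10 libraries, miR-221-3p was 39th of all small RNAs with 3752 normalized counts, and it ranked between 26th and 58th in single libraries. MiR-222-3p was 78th with 1134 and ranked between 53rd and 99th. MiR-221-5p was 263rd with 56.9 and ranked between 193rd and 659th. A read covers a whole miRNA, so these levels need no scaling by length, but ligation favours some ends over others and its part in the order was not tested.

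The spread between animals is given without a test of its difference between arms. The SD of the log2 values within groups was 0.36 for miR-221-3p, smaller than in all but 9.40% of the tested small RNAs, and 0.53 for miR-222-3p, with 27.4% below it. For miR-221-5p it was 0.995, near the middle of all tested, with 51.7% below it. These places are among small RNAs of every level, and no comparison was made among those of similar level. MiR-221-3p rested on 1077 to 14770 reads per library and miR-222-3p on 391 to 5000, so counting error was small beside the spread between animals.

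A second comparison asked whether the members of the pair moved apart, with ratios taken within a library, which do not depend on how libraries are scaled. The ratio of miR-221-3p to miR-222-3p was 3.82, 2.75, 3.51, 2.35 and 2.17 in normal 1 to 5, and 3.91, 3.58, 4.31, 2.95 and 4.86 in thin 1 to 5. Each of the 10 libraries held more miR-221-3p, and 3 of 5 thin libraries lay above every normal one. The log2 ratio averaged 1.51 ± 0.35 for the normal and 1.95 ± 0.27 for the thin group (SD, n = 5 per group), a difference of 0.44 ± 0.20 (SE, two-sided exact permutation p = 0.0556, adjusted p = 0.111 over 2 ratios). The 95% interval from the same exact test ran from -0.03 to 0.90.

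Normal 5, normal 4 and thin 4, the 3 deepest libraries, had the lowest ratios of their groups, while the shallowest library of each group, normal 2 and thin 2, came next. The part of depth in the difference was not tested. Without normal 4 and normal 5 the difference was 0.22 on the log2 scale (exact p = 0.286), and without all 3 it was 0.31 (exact p = 0.114). The exact p lay below 0.05 without normal 1, normal 3 or thin 4, at differences of 0.54, 0.51 and 0.54 (exact p = 0.0317, 0.0476 and 0.0476).

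**Figure D2:**
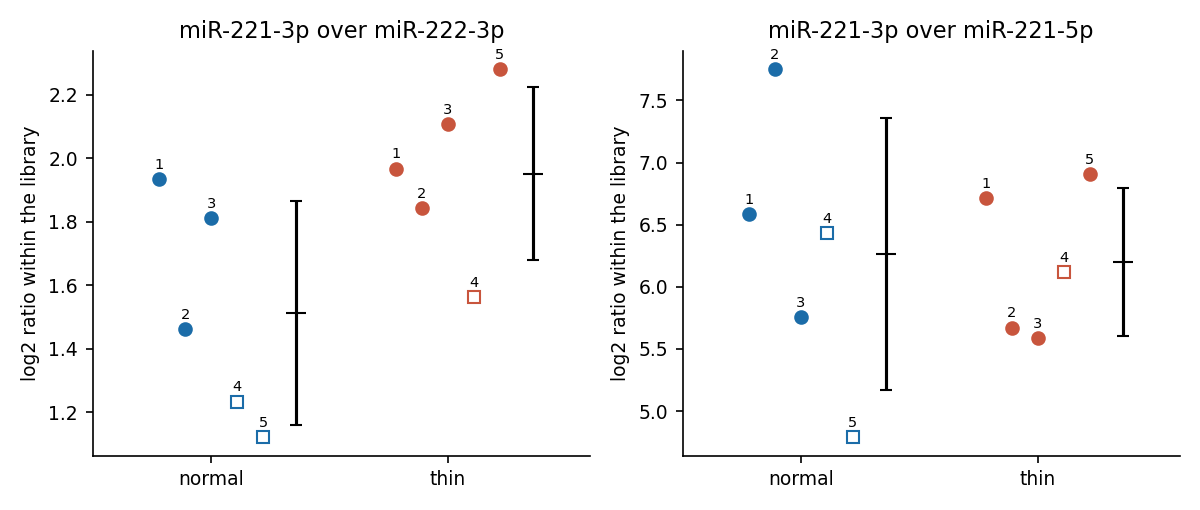
Log2 ratio within each library of miR-221-3p to miR-222-3p (left) and of miR-221-3p to miR-221-5p (right), with replicate numbers; open squares are the 3 deepest libraries and black bars are mean ± SD (n = 5). On the left thin camels average 1.95 and normal camels 1.51 with overlapping groups, and the squares are lowest in each group; on the right the group means are 6.20 and 6.26.

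The preference for the 3p arm of miR-221 was strong in both groups. In normal 1 to 5 miR-221-3p exceeded miR-221-5p by factors of 96.0, 215, 53.9, 86.3 and 27.7, and in thin 1 to 5 by 105, 51, 48.1, 69.3 and 120. The highest and the lowest ratio were both in normal camels. On the log2 scale the normal mean was 6.26 ± 1.09 and the thin mean 6.20 ± 0.60, a difference of -0.06 ± 0.56 (exact permutation p = 0.937, 95% interval -1.31 to 1.20). The interval is wide, and reaches past 1 log2 unit in either direction. Without normal 4 and normal 5 the difference was -0.50 (exact p = 0.429), and without the 3 deepest libraries it was -0.48 (exact p = 0.571). Of the 37 hairpins with both arms above 0 in all libraries, 5 had a mean ratio farther from equal arms than miR-221, and their median was 3.69 on the log2 scale. For miR-222 no such ratio could be tested, because its 5p arm was listed in normal 1 and normal 5 alone.

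Within groups the 3p arms rose and fell together from camel to camel. With group means removed, the log2 values of miR-221-3p and miR-222-3p had a Pearson r of 0.82 (permutation p = 0.00425, adjusted p = 0.0127 over 3 pairs) and a Spearman rho of 0.73 (permutation p = 0.0203) over 10 libraries. Without the 2 libraries farthest from the median of miR-221-3p, normal 2 and thin 4, r was 0.68. As shares of the library r was 0.79 (adjusted p = 0.0219). Without normal 4 and normal 5 it was 0.89 (p over all permutations 0.00154, n = 8). Without the 3 deepest it was 0.83 (p over all permutations 0.0248, adjusted p = 0.0744, n = 7). Group means were removed before permuting across both groups, so all p of these correlations are approximate and can be too low.

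MiR-221-5p had a lower r with either 3p arm than these had with each other, a difference that was not tested. Its r was 0.56 with miR-221-3p and 0.59 with miR-222-3p (Spearman rho 0.37 and 0.55), and neither passed (permutation p = 0.0886 and 0.0716 for r, 0.296 and 0.104 for rho, adjusted p = 0.0886 for both r). Without the 2 libraries farthest from the median, r was 0.22 with miR-221-3p (normal 2 and thin 4 left out) and 0.48 with miR-222-3p (thin 4 and thin 5 left out). As shares of the library, r without the 2 farthest was 0.62 (normal 1 and thin 4 left out) and 0.47 (thin 4 and thin 5 left out). In the deposited values without normal 4 and normal 5, r was 0.71 with miR-221-3p and 0.56 with miR-222-3p (n = 8). Without the 3 deepest libraries it was 0.70 and 0.54 (n = 7). All values of a library share its scaling factor and its makeup, so a correlation between 2 miRNAs need not be particular to them.

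**Figure D3:**
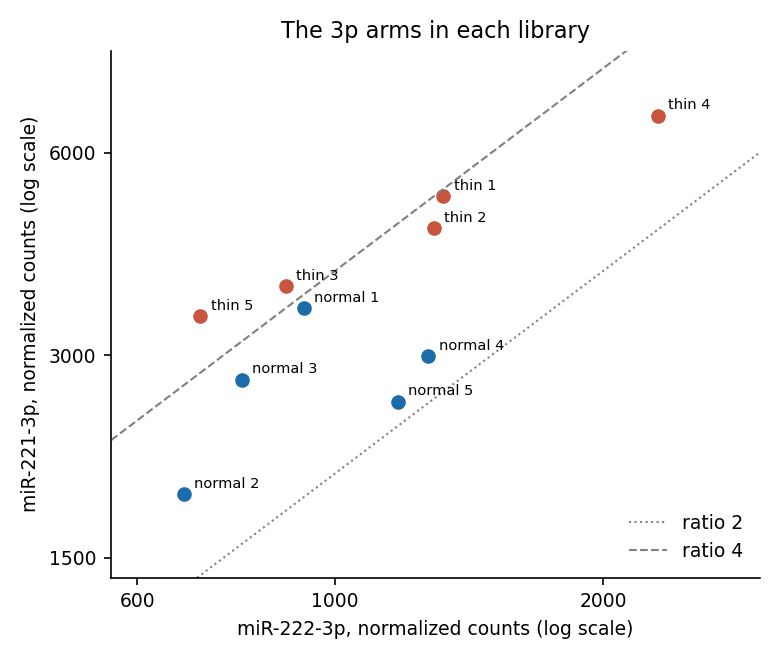
MiR-221-3p against miR-222-3p in normalized counts (both axes logarithmic), 1 point per library, normal camels in blue and thin camels in red; the dotted and dashed lines mark ratios of 2 and 4. All libraries lie above a ratio of 2, thin 4 is highest on both axes, and normal 4 and normal 5 lie closest to the dotted line.

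With group differences kept in, other miRNAs were more like miR-221-3p over the 10 libraries than miR-222-3p was. On this scale miR-222-3p was 13th of 427 small RNAs in likeness to miR-221-3p (Pearson r of log2 values 0.75). No ranking was made within groups, where their r was 0.82. The 5 other miRNAs most like miR-221-3p were miR-199a-3p and miR-199b-3p, whose entries had the same sequence and values (r = 0.90), miR-345-3p (0.87), miR-22-5p (0.86) and miR-22-3p (0.83). The normal and thin means of miR-199a-3p, a miRNA of mesenchymal cells, were 1341 and 1909.5 normalized counts, and those of miR-22-3p 4015 and 5635. For miR-222-3p the 5 most alike were miR-199a-5p (0.87), miR-28-3p (0.83), miR-181b-5p (0.82), and miR-199a-3p and miR-199b-3p (0.82). MiR-199 arms thus headed both lists, and these r are descriptions with no test.

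The pair was then set beside miRNAs known to repress CDKN1B, CDKN1C or KIT in human or mouse cells. Of 10 such miRNAs 9 were in the table and 5 were tested, with all entries of a mature name summed, and of these 2 had higher and 3 lower mean log2 values in thin camels. Their median log2 fold change was -0.70, against -0.02 over all 428 tested names. None of the 5 was called, where 1.64% of all names were, 0.935% as higher in thin camels. In the same fit of summed entries miR-221-3p had an adjusted p of 0.147 and was the 1 member at an unadjusted p under 0.05, where 12.1% of all names were and 5.84% as higher in thin camels. All 3 tested members had the higher thin mean, as had 49.1% of all names.

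Of those with CDKN1B as a target, miR-148a-3p had 0.22 and miR-24-3p 0.18 (limma adjusted p = 0.736 and 0.850), and miR-152-3p had -0.70 (0.592). MiR-25-3p, known to repress CDKN1C, went the other way from miR-221-3p, from 9768 ± 1891 to 5466 ± 1075 normalized counts (-0.84, adjusted p = 0.0698). MiR-193b-3p, which represses KIT, averaged 20.3 and 7.03 normalized counts (-2.19 ± 1.05, adjusted p = 0.446).

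Of 12 other miRNAs known to be raised in hepatocellular carcinoma, 4 were on average higher and 8 lower in thin camels. Of all 428 tested names 49.1% were higher and 1.64% were called. The median of the list was -0.21. Its most abundant members were miR-21-5p, miR-25-3p and miR-93-5p (log2 fold changes 1.13, -0.84 and -0.27), and miR-21-5p was the only one called, its normal mean being 37673 ± 5399 and its thin mean 83219 ± 17700.0 normalized counts (limma adjusted p = 0.00841). Without normal 4 and normal 5 the median was -0.09, that of all tested being -0.08.

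Of 12 miRNAs known from endothelium and vessel growth, 7 were higher and 5 lower, with a median of 0.30, and none was called. The shares over all tested names were 49.1% higher and 1.64% called. The 7 higher ones lay between 0.26 and 1.49, and the 3 most abundant members were all among the 5 lower ones. Of these 3, miR-126-3p, a miRNA of endothelium and platelets, had -0.01, miR-92a-3p -0.58 (13219.8 in thin against 19498 normalized counts in normal camels, adjusted p = 0.251) and miR-27b-3p -0.04. Without normal 4 and normal 5 the median of this list was 0.50.

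Markers of blood and liver cells give the makeup against which the pair was measured. The thin mean was the lower one for all 6 red blood cell miRNAs (median of the log2 fold changes -1.25), and 1 of them, miR-486, was called. Over all tested names, 1.64% were called and 49.1% had the higher thin mean log2 value. The 6 names belong to miR-451a, miR-144 and miR-486 only, so they are not independent. MiR-486-5p and miR-486-3p were low, with normal means of 39.8 and 19.3 normalized counts. The summed share of the 6 averaged 21.2 ± 5.05% in the normal and 11.5 ± 3.22% in the thin group. Platelet markers made up 5.75 ± 1.15% and 6.996 ± 1.69%, with 1 of 4 higher (median -0.05, turning to 0.25 without normal 4 and normal 5). Leukocyte markers made up 3.18 ± 0.68% and 4.01 ± 1.65%, with 4 of 6 higher (median 0.14, and 0.48 without normal 4 and normal 5). Single markers of these lists differed by more than miR-221-3p. MiR-223-3p of the platelet list had means of 4359 and 8466 normalized counts (log2 fold change 0.96, limma adjusted p = 0.147). MiR-142-3p of the leukocyte list had 1062 and 2433 (1.11, limma adjusted p = 0.130). The other platelet markers, miR-191-5p, miR-126-3p and miR-197-3p, lay at -0.09, -0.01 and -0.30. The other leukocyte markers lay between -0.13, for miR-142-5p of the same hairpin as miR-142-3p, and 0.29, for miR-146a-5p.

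Liver markers made up 6.39 ± 4.21% and 4.64 ± 3.42%, and all 3 tested were lower (median -0.66). No platelet, leukocyte or liver marker was called, where 1.64% of all tested names were. All 4 marker lists were above 0 in every library. The part of the red blood cell, platelet, leukocyte and liver markers in the level of miR-221-3p was not tested.

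**Figure D4:**
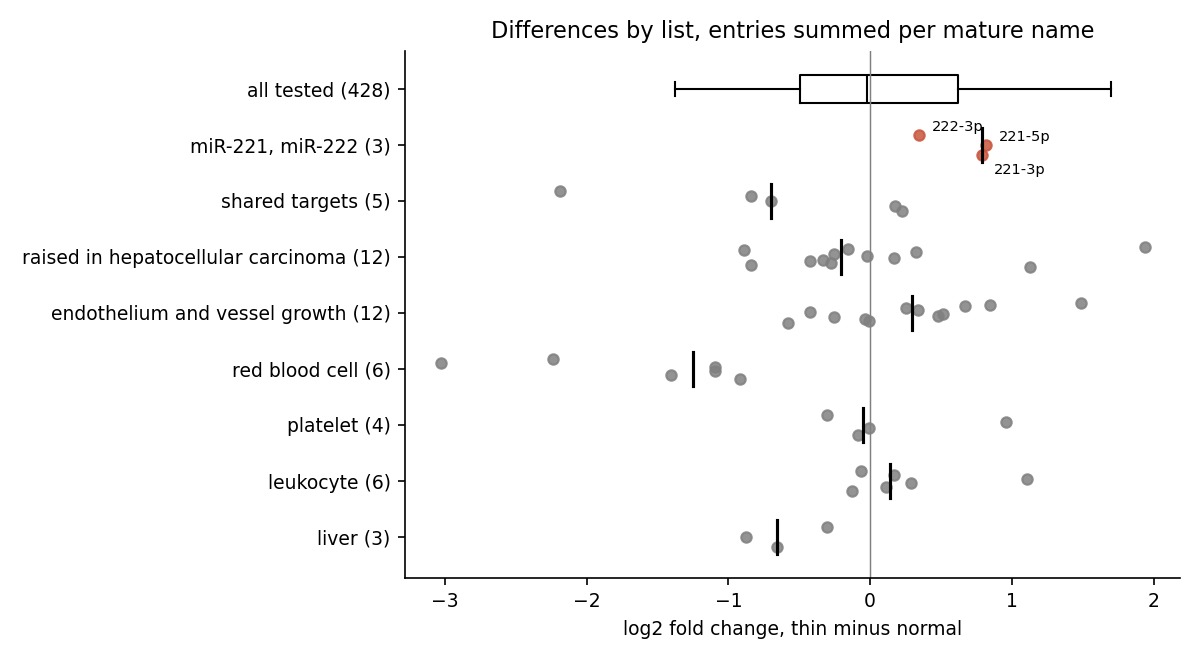
Log2 fold changes, thin minus normal, of the tested members of each list (number in brackets), with entries summed per mature name; the box shows the quartiles and median of all 428 tested names with whiskers at the 5th and 95th percentiles, and black ticks are list medians. MiR-221-3p at 0.79 and miR-221-5p at 0.82 lie right of miR-222-3p at 0.35, and the red blood cell list has the lowest median, -1.25.

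The direction of the 3 tested entries was the same under each way of processing that was tried. In 22 alternatives the log2 fold change of miR-221-3p lay between 0.65 and 0.97, with limma adjusted p from 0.0546 to 0.528. That of miR-222-3p lay between 0.11 and 0.60 over 22 alternatives, and that of miR-221-5p between 0.34 and 1.27 over 21. No alternative brought any of them past the threshold.

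**Figure D5:**
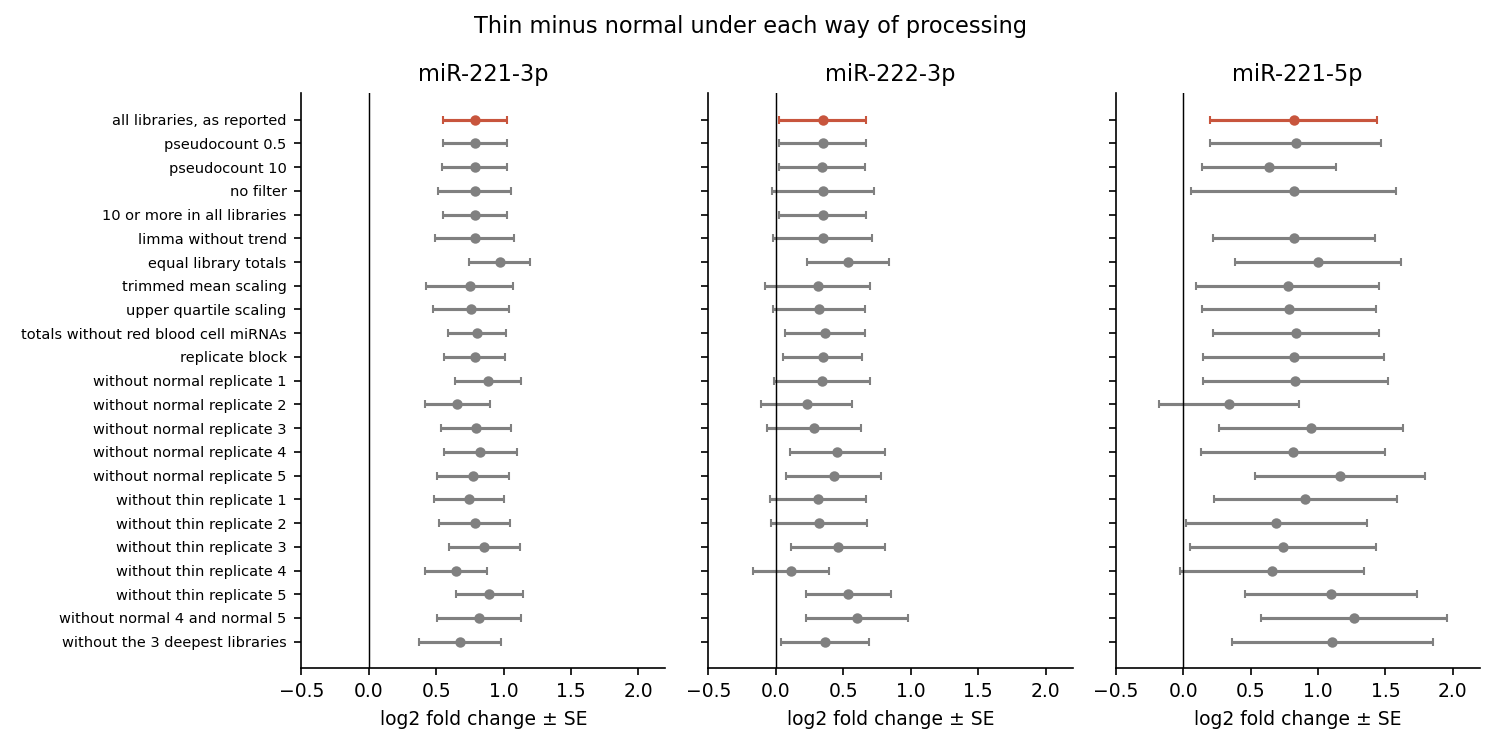
Log2 fold change ± SE, thin minus normal, of the 3 tested entries in the reported fit (red) and under each alternative (grey), among them leaving out single libraries. All points lie right of 0, between 0.65 and 0.97 for miR-221-3p, and miR-222-3p comes closest to 0 without thin 4, at 0.11; miR-221-5p has no value where 10 or more was asked for in all libraries.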

How the data were processed

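Per the labels' protocols, plasma exosomes were obtained by centrifugation, their RNA was taken up with a mirVana kit and put through TruSeq small RNA preparation and Illumina HiSeq sequencing, and ACGT101-miR removed unwanted reads. That text counts 9 libraries, but 10 were labelled and deposited. Mapping reference and scaling factor: not given in the sources used here. Per the file headers, the authors deposited a signal per small RNA and library called normalized counts. Of its positive values, 97.3% to 98.8% per library were within 0.02 of a whole step, and no count test was run. Another 2 lines of the table were empty.

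Members were matched by name. A filter of 10 normalized counts reached by 5 libraries kept 468 small RNAs and left miR-222-5p out. On log2(value + 1), limma 3.58.1 with a mean trend (R 4.3.3) was fitted with group as the only term and Benjamini-Hochberg adjustment over all tested, at a threshold of 0.05. Fold changes are on that scale, which understates those of low small RNAs. The design assumed either unit, and the test for normalized values was used. The fit was repeated with entries summed per mature name (428 tested). Ratios were tested by two-sided exact permutation over all 252 assignments of the group labels (smallest possible p 0.00794). Correlations were tested by 100000 permutations, or all of them below 10 libraries. These ran across both groups after removal of the group means, so their p are approximate. The limma fit and the trimmed mean scaling were tried on simulated data. The members and lists were chosen with earlier results of these data known, and 1 list of miRNAs that share a further target is not reported here. Named in addition were the 5 miRNAs most correlated with each 3p arm and up to 3 of the most abundant per list. MiR-486, miR-223-3p and miR-142-3p were added after their values were seen. The other platelet markers, miR-142-5p, miR-146a-5p, miR-486-5p and miR-486-3p were then named beside them. Sequences are those of the deposited table, and no genome was used. Python 3.11.15, numpy 2.4.6, pandas 2.3.3, scipy 1.17.1 and matplotlib 3.10.9 were used.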

Additional observations from a re-analysis of the deposited data

How the results depend on the processing

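No member was called under any of the 22 alternatives in either table, and no tested entry changed direction. Leaving out single libraries gave log2 fold changes of 0.65 to 0.90 for miR-221-3p, 0.11 to 0.54 for miR-222-3p and 0.34 to 1.16 for miR-221-5p. The log2 difference in the ratio of miR-221-3p to miR-222-3p then ran from 0.34 to 0.54 (exact p 0.0317 to 0.127) and that of the arms of miR-221 from -0.43 to 0.31, turning above 0 without normal 1, normal 2, thin 2 or thin 3 (0.02, 0.31, 0.07 and 0.09); the cause was not tested. All small RNAs called numbered 9 (6 higher, 3 lower), but 15 with no filter, 4 without trend, 3 without normal 4 and normal 5, 5 without the 3 deepest libraries, and 6 higher and 1 lower after trimmed mean scaling. Whether the replicate numbers shared by the groups pair the libraries was not tested. Deviations of same-numbered libraries correlated at -0.20 to 0.52, and 2 of 5 thin libraries were closest to their own number. With the replicate block miR-221-3p had a log2 fold change of 0.79 (adjusted p = 0.157) and the ratio a sign-flip exact p of 0.0625, the smallest that 5 pairs allow. The share of an isomiR within an arm could not be computed with 1 entry per arm. With 5 camels per group, the intervals of miR-222-3p and miR-221-5p reach from below 0 to 1.05 and 2.17.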

Other observations

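The steps of the deposited values had a pattern of their own. Of 416 small RNAs above 0 in at least 8 libraries and at whole steps throughout, 289 or 69.5% held even numbers of steps in every library, miR-221-3p, miR-221-5p and miR-222-3p among them, and the fewest steps of any small RNA with even steps throughout were 6. How many steps 1 read is worth was not tested. Fold changes of a small RNA between camels do not depend on it.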
